A study of Homo sapiens with 20 samples.

Results

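The genes of the urea cycle and of hepatic glutaminase were followed in HepaRG cells through differentiation, DMSO exposure and DMSO removal. The group holds 9 genes, CPS1, NAGS, OTC, SLC25A15, ASS1, ASL, ARG1, ARG2 and GLS2, chosen by name. Every array probe whose transcript accession belongs to one of them was taken, which gave 11 probes of the 42405 on the array, with 2 probes each for ARG1 and ASS1. All 9 genes were among the 22069 genes tested, where each gene is represented by its brightest probe. HepaRG is an established bipotent line of hepatic progenitors that comes from a human hepatocellular carcinoma. It forms hepatocyte-like and biliary-like cells in the same dish. There were 5 conditions with 4 arrays each: progenitors at day 4 (D4), committed cells at day 15 (D15), cells at day 30 that never met DMSO (D30 − DMSO), cells at day 30 exposed to 2% DMSO since the middle of the culture (D30 + DMSO), and DMSO-differentiated cells kept for 4 further days without it (D34 ± DMSO). Every culture had serum, insulin and hydrocortisone in its medium, so none was free of glucocorticoid. No culture was kept in DMSO to day 34, so DMSO removal and 4 further days of culture cannot be told apart here. The comparison of D34 ± DMSO with D30 − DMSO also spans these days. The submitters describe the replicates as independent experiments. The RNA came from whole mixed cultures, so that fewer cells of a type and less RNA per cell cannot be told apart.

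The urea cycle turns ammonia into urea in the periportal hepatocyte. It starts in the mitochondrion, where CPS1 makes carbamoyl phosphate once it is activated by the N-acetylglutamate that NAGS supplies, and where OTC joins this product to ornithine brought in by the carrier SLC25A15. In the cytosol ASS1 and ASL build and split argininosuccinate, and ARG1 cleaves arginine into urea and ornithine. ARG2 is the mitochondrial arginase, found mostly outside the liver. GLS2 is the liver-type glutaminase, which releases ammonia from glutamine inside the mitochondria of the cells that hold the cycle.

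Intensities were scaled so that the 75th percentile of every array is 384 units, and log2 values are relative to that percentile. Differences of log2 values come from a limma fit over all 20 arrays and are given with their standard error (SE). A gene was said to pass the thresholds when the adjusted p was below 0.005 and the difference more than 2-fold. Replicate arrays correlated with r between 0.955 and 0.992. The arrays lay on 4 slides read in 2 scan sessions, and slide 4, the whole of the second session, held replicate 4 of every condition and 2 further arrays, replicate 3 of D15 and replicate 3 of D30 + DMSO. As a check of the cell type, all 10 hepatocyte markers tested were higher at D15 than at D4, and the summed intensity of these markers ran from 142000 to 293000 at D4 and from 1080000 to 1650000 at D15. Of the biliary and progenitor markers, EPCAM, CFTR and PROM1 were not well above background on all 4 arrays of any condition, and the other 7 were tested. At D15 against D4, 1 of these 7 passed as higher and none as lower, with a median log2 difference of -0.38. Their summed intensity ran from 121000 to 190000 at D4 and from 90200 to 124000 at D15. Of 6 mesenchymal markers tested, 3 passed as lower and none as higher. Their sums were 13200 to 21100 at D4 and 5620 to 8730 at D15. The part of these shifts in the member values was not tested.

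The promoters of ARG1 and OTC, the members below background at D4, and of ARG2 and GLS2, the members past the thresholds for DMSO addition, are shown from 250 bases before to 50 bases after a RefSeq start of transcription (GRCh38.p14). The starts used for ARG1, ARG2 and GLS2 lie at an end of their gene spans. That of OTC lies inside its span, 38327684 to 38422928, and the transcript it belongs to was not examined. Capitals mark matches to 7 sets of letters searched on both strands. These were TATAAA for the TATA box, CCAAT for the site of that name, TGTTCT as the core of a glucocorticoid receptor site, AGGTCA as the core of other nuclear receptor sites, CAAAGTCCA for HNF4A, and TTGCGCAA and TTGCACAA for C/EBP.
ARG1, chr6:131572976-131573275, plus strand: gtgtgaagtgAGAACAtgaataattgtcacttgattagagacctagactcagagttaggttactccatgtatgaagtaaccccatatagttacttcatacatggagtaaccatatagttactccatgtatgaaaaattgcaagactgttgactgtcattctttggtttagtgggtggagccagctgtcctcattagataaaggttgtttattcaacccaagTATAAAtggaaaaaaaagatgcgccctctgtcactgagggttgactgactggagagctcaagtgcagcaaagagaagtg
OTC, chrX:38352354-38352653, plus strand: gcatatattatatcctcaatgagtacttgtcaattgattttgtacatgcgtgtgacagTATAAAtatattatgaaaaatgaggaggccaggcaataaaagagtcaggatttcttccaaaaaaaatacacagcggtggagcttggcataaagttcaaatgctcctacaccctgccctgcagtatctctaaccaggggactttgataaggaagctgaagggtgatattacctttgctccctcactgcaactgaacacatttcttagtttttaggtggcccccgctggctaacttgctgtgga
ARG2, chr14:67619670-67619969, plus strand: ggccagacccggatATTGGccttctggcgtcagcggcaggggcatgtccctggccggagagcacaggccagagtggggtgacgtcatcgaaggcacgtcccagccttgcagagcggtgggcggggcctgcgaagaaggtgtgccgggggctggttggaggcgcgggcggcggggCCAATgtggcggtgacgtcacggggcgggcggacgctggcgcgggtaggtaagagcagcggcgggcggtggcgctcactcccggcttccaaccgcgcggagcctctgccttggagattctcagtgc
GLS2, chr12:56488112-56488411, minus strand: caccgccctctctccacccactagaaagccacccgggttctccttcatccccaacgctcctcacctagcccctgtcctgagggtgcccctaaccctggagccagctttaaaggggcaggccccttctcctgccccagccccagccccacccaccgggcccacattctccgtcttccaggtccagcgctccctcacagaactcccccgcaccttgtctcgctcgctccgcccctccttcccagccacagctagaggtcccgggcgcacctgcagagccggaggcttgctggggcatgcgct
The ARG1 promoter holds TATAAA 29 bases before the start and the complement of TGTTCT near its far end, OTC holds TATAAA further upstream, at position -192, and ARG2 holds CCAAT on both strands. The GLS2 window holds none of the letters searched. Of all 35116 promoters in the table, 11.5% hold TATAAA, 34.6% CCAAT, 14.8% TGTTCT, 13.8% AGGTCA, 0.384% CAAAGTCCA, 0.151% TTGCGCAA and 0.777% TTGCACAA. The windows of ARG1 and OTC are poor in G and C, at 40% and 41.7%, and those of ARG2 and GLS2 are rich, at 71% and 67.3%, against a median of 58.7% over all promoters. A match describes the letters only, and the absence of one says nothing of the factor.

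Between D4 and D15, 4 of the 9 members rose past the thresholds, CPS1, OTC, ARG1 and ASL, and none fell, where 5.71% of all genes tested passed as higher and 9.53% in either direction. The D15 arrays did not overlap those of D4 for 7 of 9 members, against 24.1% of all genes. The median difference of the 9 members was 0.64 on the log2 scale, against 0.02 over all genes tested. From D15 to D30 − DMSO no member passed in limma, with 2 of 9, ARG1 and OTC, at an unadjusted p below 0.05 and none by the t-test of the study's methods, and 0.0136% of all genes passed. Those 2 were also the members without overlap, against 2.17% of all genes. DMSO addition, D30 + DMSO against D30 − DMSO, raised ARG2 and GLS2, 2 of 9, where 1.74% of all genes passed as higher and 5.85% in either direction. ARG2, GLS2, OTC and ASL, 4 of 9, had arrays that did not overlap, against 24.5% of all genes. In DMSO removal, D34 ± DMSO against D30 + DMSO, GLS2 alone among the 9 passed, as lower, where 1.99% passed as lower and 7.04% in either direction. GLS2 and ASL, 2 of 9, did not overlap, against 22.8% of all genes. Between D34 ± DMSO and D30 − DMSO, cells withdrawn from DMSO and cells never exposed, no member passed in limma, 2 of 9 (ARG1 and OTC) had an unadjusted p below 0.05, none passed by the methods' t-test, and the background was 1.5%. No member was free of overlap there, against 11.6% of all genes. D30 + DMSO against D15 gave calls for ARG1, OTC and GLS2, all higher, where 2.26% of all genes passed as higher and 6.49% in either direction, and D30 + DMSO against D4 for CPS1, OTC, ASL, ARG1 and GLS2, all higher, where 8.98% and 18.3% did. The methods' t-test did not call CPS1 in the last of these (adjusted p = 0.0139). Over all 5 conditions the limma F-test, at a Bonferroni threshold of 0.001 and more than 3-fold, called ARG1, OTC, GLS2 and CPS1, where 5.35% of genes were called. Their Bonferroni-adjusted p from limma was 2.44e-10, 9.69e-09, 0.000184 and 0.000653 in this order, and that of ASL, at 3.11-fold, was 0.0134.

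**Figure D1:**
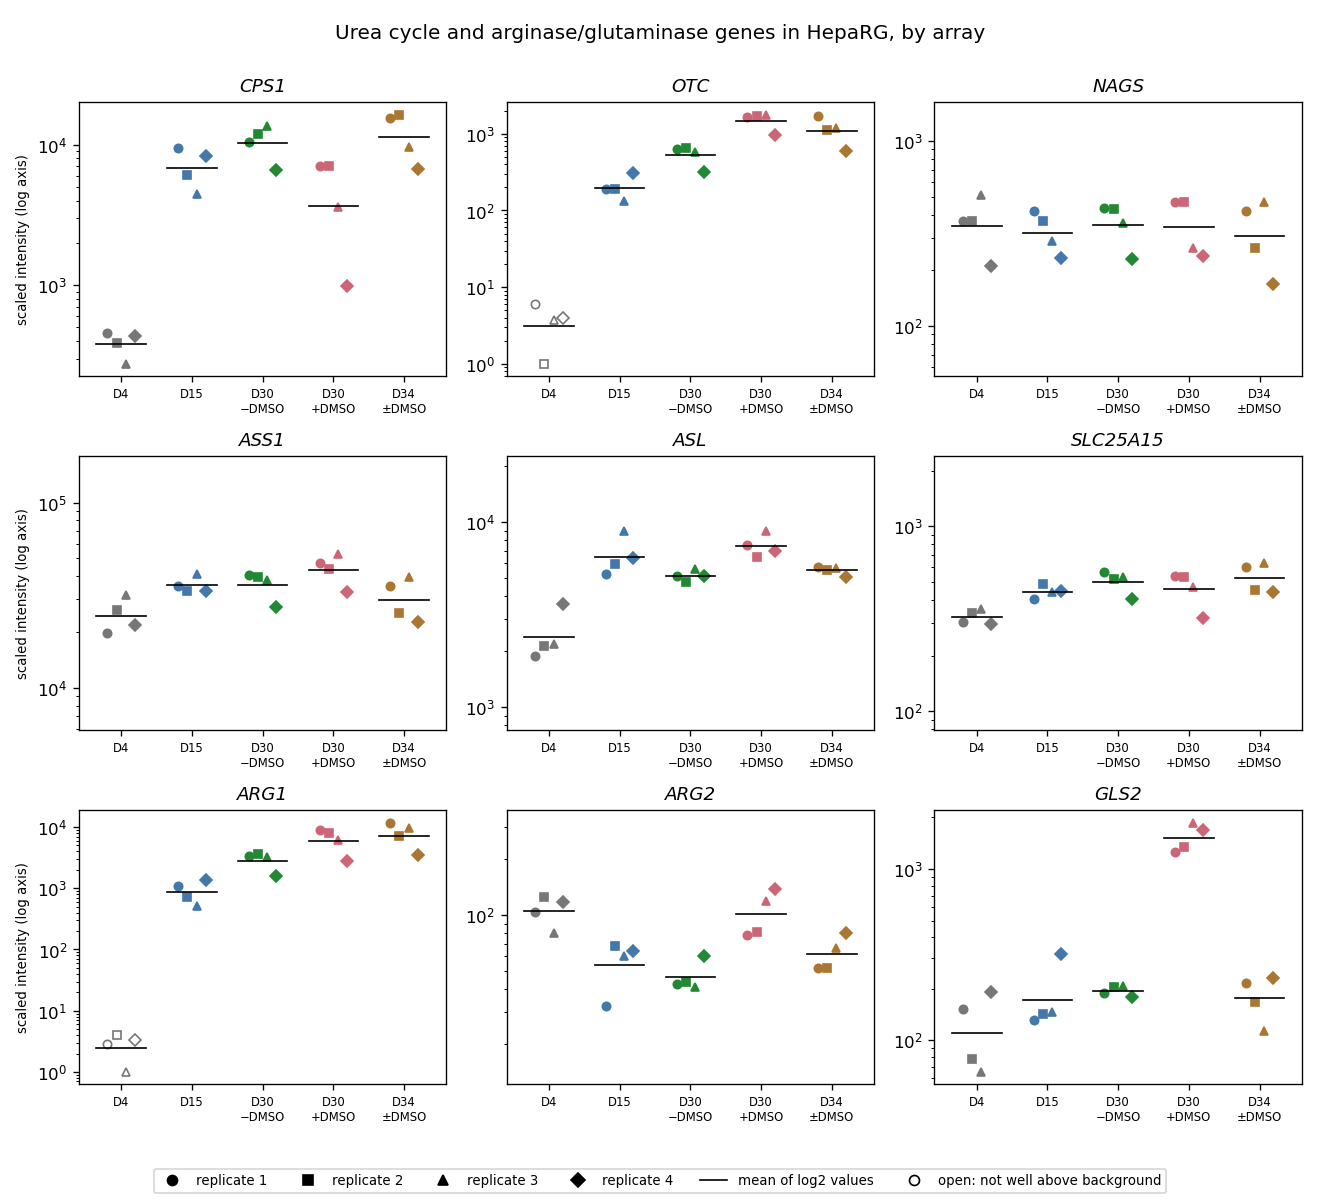
Scaled intensity on a log axis for the 9 genes in the 5 conditions, each point 1 array with its replicate as symbol and each bar the mean of the 4 log2 values. Open points were not well above background and values under 1 are drawn at 1. ARG1 and OTC leave the background between D4 and D15, and the 4 GLS2 points of D30 + DMSO, between 1260 and 1860, lie above all others.

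CPS1 (NM_001875; chromosome 2, 210477685 to 210679107 in GRCh38.p14), the entry enzyme of the cycle, gave scaled intensities of 457, 387, 275 and 435 on the arrays of D4. At D15 they were 9490, 6130, 4420 and 8340, and at D30 − DMSO 10500, 11900, 13600 and 6630. The progenitors thus already carried CPS1 signal on every array, and every D15 array lay above every D4 array. The rise was 17.9-fold (log2 difference 4.16 ± 0.48 SE, limma adjusted p = 2.74e-06).
With DMSO the intensities of CPS1 were 7100, 7010, 3620 and 985, and after removal 15500, 16300, 9570 and 6700. The D30 + DMSO arrays were low and scattered, with a coefficient of variation of 63%, and 2 of them overlapped the lowest D30 − DMSO array. CPS1 was the only member with a negative difference of more than 1 on the log2 scale for DMSO addition, -1.50 ± 0.48 SE, but at an adjusted p of 0.0378 it did not pass. For removal the difference was 1.63 ± 0.48 SE (adjusted p = 0.0208), which did not pass either, and D34 ± DMSO against D30 − DMSO gave 0.13 ± 0.48 SE. Replicate 4 weighed on these values: without that D30 + DMSO array the difference of addition was -0.87 (adjusted p = 0.114) and that of removal 1.00 (adjusted p = 0.0588). Within the first scan session they were -0.76 and 0.93, and within the second -1.81 and 1.83. The second session held 2 D30 + DMSO arrays, replicate 4 among them, and only 1 array of D30 − DMSO and 1 of D34 ± DMSO.

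NAGS (NM_153006; chromosome 17, 44004622 to 44009068), which makes the activator of CPS1, stayed close to the 75th percentile of the arrays. Its 20 arrays ran from 168 to 513 units, its condition means from -0.33 to -0.13 on the log2 scale, and no pair of conditions differed by more than 0.20. The widest spread in NAGS was between replicates, where replicate 4 was the lowest of its 4 in all 5 conditions. The other arrays of slide 4, replicate 3 of D15 and of D30 + DMSO, came next above it, with 287 and 265 units. The part of the slide in these values was not tested.

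OTC (NM_000531; chromosome X, 38327684 to 38422928) did not rise clearly over background on the D4 arrays, with scaled intensities of 5.97, -0.999, 3.75 and 4.02. At D15 the arrays gave 190, 190, 134 and 312, and at D30 − DMSO 627, 657, 577 and 317. The signal of OTC therefore appeared between D4 and D15, and the lowest D30 − DMSO array was just above the highest D15 array. From D4 to D15 OTC was at least 15.1-fold higher, a bound set by the lowest signal called well above background (limma adjusted p = 1.14e-08). The 1.41 ± 0.45 SE from D15 to D30 − DMSO had an adjusted p of 1, in a comparison where 3 genes of the whole array passed.
In D30 + DMSO the OTC intensities were 1650, 1680, 1760 and 952, and in D34 ± DMSO 1680, 1110, 1200 and 598. All 4 D30 + DMSO arrays exceeded all 4 D30 − DMSO arrays, while those of D34 ± DMSO overlapped both. The 2.80-fold difference for DMSO addition (1.49 ± 0.45 SE, adjusted p = 0.0253) did not pass. It passed with a floor of 10 units on the intensities (adjusted p = 0.00176) and with normexp background correction (1.30, adjusted p = 0.00174). The whole second phase with DMSO, D30 + DMSO against D15, gave 7.45-fold (2.90 ± 0.45 SE, adjusted p = 0.00011). On the arrays of the first scan session alone this call was lost, at 3.13 with an adjusted p of 0.00502, above the limit of 0.005.

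SLC25A15 (NM_014252; chromosome 13, 40789611 to 40812460), the ornithine carrier that feeds OTC, moved little. Its intensities were 298 to 356 at D4 and 403 to 490 at D15, without overlap, a difference of 0.46 ± 0.17 SE (adjusted p = 0.0628). Addition and removal of DMSO gave -0.14 ± 0.17 SE and 0.21 ± 0.17 SE. SLC25A15 has a close paralogue, and cross-hybridisation with it was not examined, as no probe sequence was used here. In both mitochondrial steps the carrier or activator gene therefore showed less change than the enzyme gene beside it, as values and not as a tested difference.

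ASS1 (NM_000050; chromosome 9, 130444707 to 130501274), which condenses citrulline with aspartate, was bright in all conditions, including D4. Its brighter probe gave 19800, 26100, 31500 and 21900 at D4, and 35500, 33300, 40900 and 33400 at D15. None of these spots was saturated. D15 exceeded D4 without overlap, by 0.55 ± 0.20 SE (adjusted p = 0.0617), and the second probe gave 0.63 ± 0.16 SE (adjusted p = 0.00792) with overlapping arrays. Addition of DMSO gave 0.27 ± 0.20 SE and 0.26 ± 0.16 SE on the 2 probes. Removal gave -0.54 ± 0.20 SE (adjusted p = 0.0714) and -0.60 ± 0.16 SE (adjusted p = 0.0125), and on the second probe the arrays of the 2 conditions did not overlap. The probes followed each other less closely than those of ARG1, with r = 0.621 over the 20 arrays. ASS1 has many processed pseudogenes, and cross-hybridisation could not be examined without the probe sequences.

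ASL (NM_001024943; chromosome 7, 66075819 to 66093576), which releases arginine from argininosuccinate, gave 1900, 2140, 2190 and 3610 units at D4. At D15 the arrays gave 5210, 5950, 8910 and 6380 and at D30 − DMSO 5120, 4750, 5580 and 5100. Every D15 array lay above every D4 array, and ASL rose 2.72-fold (1.44 ± 0.19 SE, adjusted p = 9.53e-06), a call that the methods' t-test did not give (adjusted p = 0.0151).
With DMSO the ASL intensities were 7470, 6470, 8910 and 6990, and after removal 5730, 5520, 5640 and 5050. The D30 + DMSO arrays were above every array of both other conditions, D30 − DMSO and D34 ± DMSO, though by less than 2-fold: 0.53 ± 0.19 SE for addition (adjusted p = 0.0565) and -0.43 ± 0.19 SE for removal (adjusted p = 0.113).

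ARG1 (NM_000045; chromosome 6, 131573226 to 131584329), the arginase that completes the cycle, was below background at D4, where its brighter probe gave 2.90, 4.00, -0.483 and 3.29. At D15 the arrays gave 1080, 715, 516 and 1370, and at D30 − DMSO 3370, 3630, 3240 and 1610. No array of one of these 3 conditions overlapped the next. From D4 to D15 ARG1 was at least 65.7-fold higher on this probe and at least 31.6-fold on the second. The limma adjusted p of 5.36e-10 belongs to the fitted difference of the brighter probe's floored values and not to the bound. The further 1.72 ± 0.48 SE to D30 − DMSO had an adjusted p of 0.634.
In D30 + DMSO ARG1 gave 9020, 8100, 6050 and 2820, and in D34 ± DMSO 11700, 7160, 9470 and 3460. These 2 conditions overlapped over most of their range, and replicate 4 of D30 + DMSO fell among the D30 − DMSO arrays. DMSO addition gave 1.07 ± 0.48 SE (adjusted p = 0.143) on this probe and 1.12 ± 0.38 SE (adjusted p = 0.0449) on the second, where the arrays did not overlap. Removal gave 0.28 on both probes, with adjusted p of 0.774 and 0.700. Without replicate 4 of D30 + DMSO the value of the brighter probe was -0.07. Within the second scan session, with 1 D34 ± DMSO array against 2 of D30 + DMSO, it was -0.26. D30 + DMSO against D15 was 6.90-fold higher (2.79 ± 0.48 SE, adjusted p = 0.000317), which passed in limma and not by the methods' t-test (adjusted p = 0.0165). The 2 ARG1 probes followed each other with r = 0.996 over the 20 arrays.

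ARG2 (NM_001172; chromosome 14, 67619920 to 67651708), the other arginase gene, took a different course in the same arrays. Its intensities were 104, 126, 80 and 118 at D4, 32.2, 68.5, 60.4 and 63.9 at D15, and 42.4, 43.4, 40.7 and 60.1 at D30 − DMSO. The D4 arrays were thus the highest of the 3 conditions. The difference from D4 to D15, -0.97 ± 0.25 SE (adjusted p = 0.00749), was just under 2-fold and did not pass, and D30 − DMSO against D4, -1.19 ± 0.25 SE (adjusted p = 0.00123), did, in a comparison where 3.96% of all genes passed as lower and 10.3% in either direction. This last call was lost with quantile normalization (adjusted p = 0.00693), with normexp (-0.61, adjusted p = 0.00651), by the methods' t-test (adjusted p = 0.00814), and without replicate 2 of D4 or replicate 1 or 3 of D30 − DMSO. With slide or scan session as a block the D15 value was -1.07 or -1.08, and passed.
With DMSO ARG2 gave 78.5, 81.2, 119 and 139, and after removal 51.8, 52, 66.2 and 80. The D30 + DMSO arrays all lay above the D30 − DMSO arrays and within reach of those of D4. ARG2 was 2.20-fold higher with DMSO (1.14 ± 0.25 SE, adjusted p = 0.00298). This call was lost with quantile normalization (adjusted p = 0.0138), normexp (0.61, adjusted p = 0.0105), no filter on dim probes, slide as a block, the methods' t-test (adjusted p = 0.0266), a fit of the compared arrays alone and the first scan session alone (0.92, adjusted p = 0.0551), and without replicate 1, 2 or 3 of D30 − DMSO or replicate 3 or 4 of D30 + DMSO, where the difference lay between 0.99 and 1.11. Removal gave -0.72 ± 0.25 SE (adjusted p = 0.0466).

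GLS2 (NM_013267; chromosome 12, 56470952 to 56488161), the liver-type glutaminase, was the member that followed the presence of DMSO most closely. Its intensities were 153, 77.9, 65.2 and 192 at D4, 132, 142, 146 and 320 at D15, and 188, 204, 208 and 178 at D30 − DMSO. These 3 conditions overlapped, and the 0.64 ± 0.33 SE from D4 to D15 did not pass (adjusted p = 0.194). Unlike CPS1, OTC, ARG1 and ASL, GLS2 had no call for the step from D4 to D15, and the difference between these genes' steps was not tested.
In D30 + DMSO GLS2 gave 1260, 1350, 1860 and 1680 units. In D34 ± DMSO the arrays gave 216, 168, 113 and 230. The lowest D30 + DMSO array was above every array of the other conditions, and the arrays after removal were in the range of those at D4 and D15. GLS2 rose 7.83-fold with DMSO (2.97 ± 0.33 SE, adjusted p = 3.93e-06) and was 8.68-fold lower after its removal (-3.12 ± 0.33 SE, adjusted p = 1.52e-06). D34 ± DMSO against D30 − DMSO gave -0.15 ± 0.33 SE (adjusted p = 0.963). The calls of addition and removal share the D30 + DMSO arrays. Both were made under every alternative processing tried and with any single array left out. The differences were 2.71 and -3.03 within the first scan session and 3.31 and -2.94 within the second. The second session held 2 D30 + DMSO arrays against 1 array of each other condition compared.

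**Figure D2:**
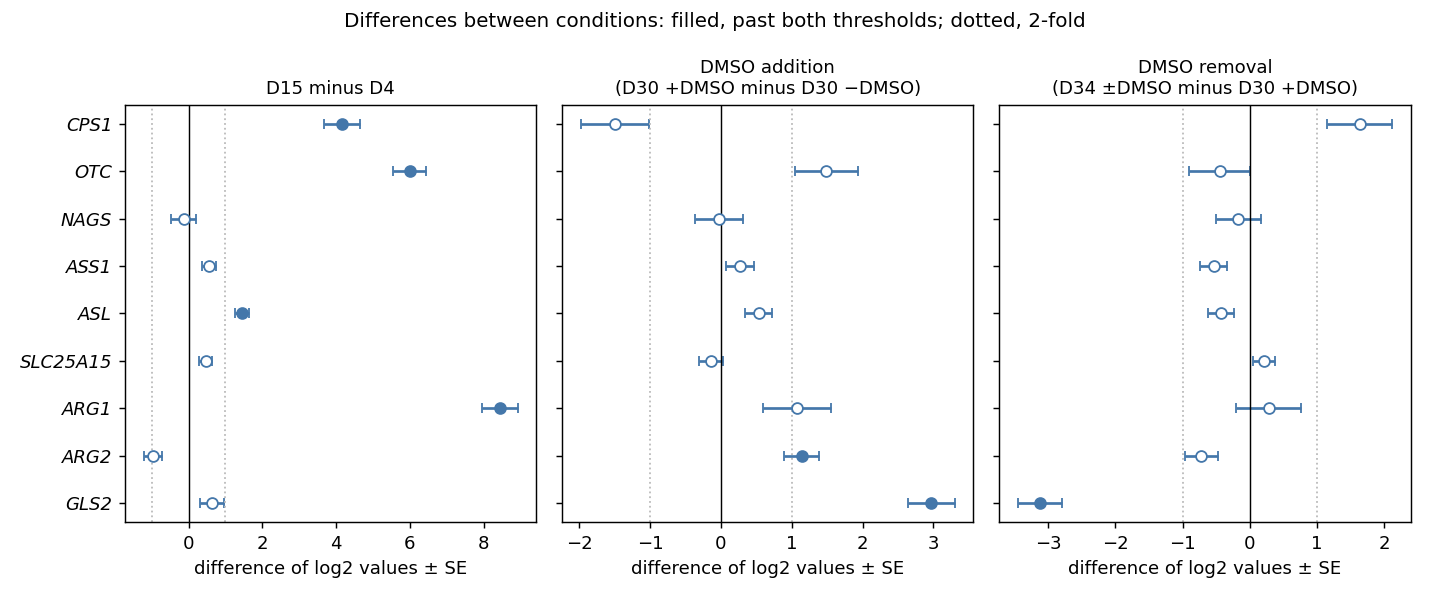
Differences of log2 values with their standard errors for the 9 genes in 3 comparisons, each from 4 arrays against 4. Filled points pass both thresholds and dotted lines mark 2-fold. Filled points are CPS1, OTC, ASL and ARG1 for D15 minus D4, ARG2 and GLS2 for DMSO addition, and GLS2 for DMSO removal.

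By the order of their condition means the 9 genes fell into different patterns. ARG1, CPS1 and SLC25A15 were highest at D34 ± DMSO, OTC, ASS1, ASL and GLS2 at D30 + DMSO, NAGS at D30 − DMSO, and ARG2 at D4. Only for GLS2 did the highest condition differ from the next below it past the thresholds. For ARG1, CPS1, OTC and ASL the lowest condition was D4, and the step from D4 to the condition next above it was the only step between neighbours in the order that passed. For GLS2 the only such step was that from D30 − DMSO up to D30 + DMSO. Neighbouring conditions of ARG2, ASS1, NAGS and SLC25A15 did not differ past the thresholds at any step.

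Genes that supply or drain the cycle, and transcription factors known to act on its genes, were taken from 5 lists of related genes. The lists held 60 genes, of which 53 were tested. From D4 to D15, 15 of them (28.3%) passed as higher and none as lower, against 5.71% of all genes as higher and 9.53% in either direction. Among them were GATM (4.19 ± 0.27 SE), which uses arginine to make the precursor of creatine, PRODH2 (4.74 ± 0.31 SE), which oxidises hydroxyproline, GPT (2.98 ± 0.20 SE), the alanine aminotransferase, and CA5A (2.08 ± 0.38 SE), the mitochondrial carbonic anhydrase that provides bicarbonate to CPS1. GLUL, the glutamine synthetase of perivenous hepatocytes, gave 1.22 ± 0.34 SE (adjusted p = 0.0126) and did not pass. Of the 10 transcription factors listed for their action on urea cycle genes, CEBPA (2.67 ± 0.17 SE) and HNF4A passed as higher at D15, and the HNF4A probe had no D4 array clearly over background.

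For DMSO addition 5 of the 53 passed (9.43%) and for removal 3 (5.66%), against 5.85% and 7.04% of all genes tested, so that the share for removal was below the background. GLUL gave -0.44 ± 0.34 SE for addition and -0.52 ± 0.34 SE for removal, CA5A -0.15 ± 0.38 SE and -0.20 ± 0.38 SE, and SLC25A13, the aspartate-glutamate carrier that exports aspartate for ASS1, 0.61 ± 0.13 SE (adjusted p = 0.00198, under 2-fold) and -0.46 ± 0.13 SE. The probe of OAT, which links ornithine to proline and glutamate, was not well above background on any of the 20 arrays. No factor of the list of 10 passed for addition or removal, with a range of differences from -0.69 to 0.93 and from -0.93 to 0.68.

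SLC38A3, the glutamine transporter of periportal hepatocytes, gave 319, 287, 275 and 252 at D30 − DMSO, 1040, 857, 1050 and 1000 at D30 + DMSO, and 406, 250, 218 and 227 at D34 ± DMSO. The D30 + DMSO arrays were apart from both others, as those of GLS2 were. SLC38A3 rose by 1.80 ± 0.18 SE with DMSO (adjusted p = 1.67e-06) and fell by 1.88 on its removal (SE 0.18, adjusted p = 6.4e-07). GPT rose with DMSO by 1.17 ± 0.20 SE (adjusted p = 0.000406) and fell by 1.84 on removal (SE 0.20, adjusted p = 2.7e-06).
The arginine importer SLC7A1 went the other way, from 95.1, 90.1, 107 and 224 at D30 − DMSO to 27.1, 27.6, 26.1 and 57.6 at D30 + DMSO and back to 142, 119, 68.5 and 370. No D30 + DMSO array reached the other 2 conditions, and replicate 4 was the highest in each. SLC7A1 fell by 1.88 with DMSO (SE 0.44, adjusted p = 0.0047) and rose by 2.14 on removal (SE 0.44, adjusted p = 0.00138). SLC7A7, which exports cationic amino acids, fell by 1.62 with DMSO (SE 0.17, adjusted p = 1.78e-06) and did not pass for removal (0.37 ± 0.17 SE). In D34 ± DMSO it was still lower than in D30 − DMSO, by -1.24 ± 0.17 SE (adjusted p = 9.76e-05). SLC38A4, an amino acid transporter of the liver, fell by 1.40 with DMSO (SE 0.28, adjusted p = 0.00152), and removal gave 1.11 ± 0.28 SE (adjusted p = 0.00788), which did not pass.

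**Figure D3:**
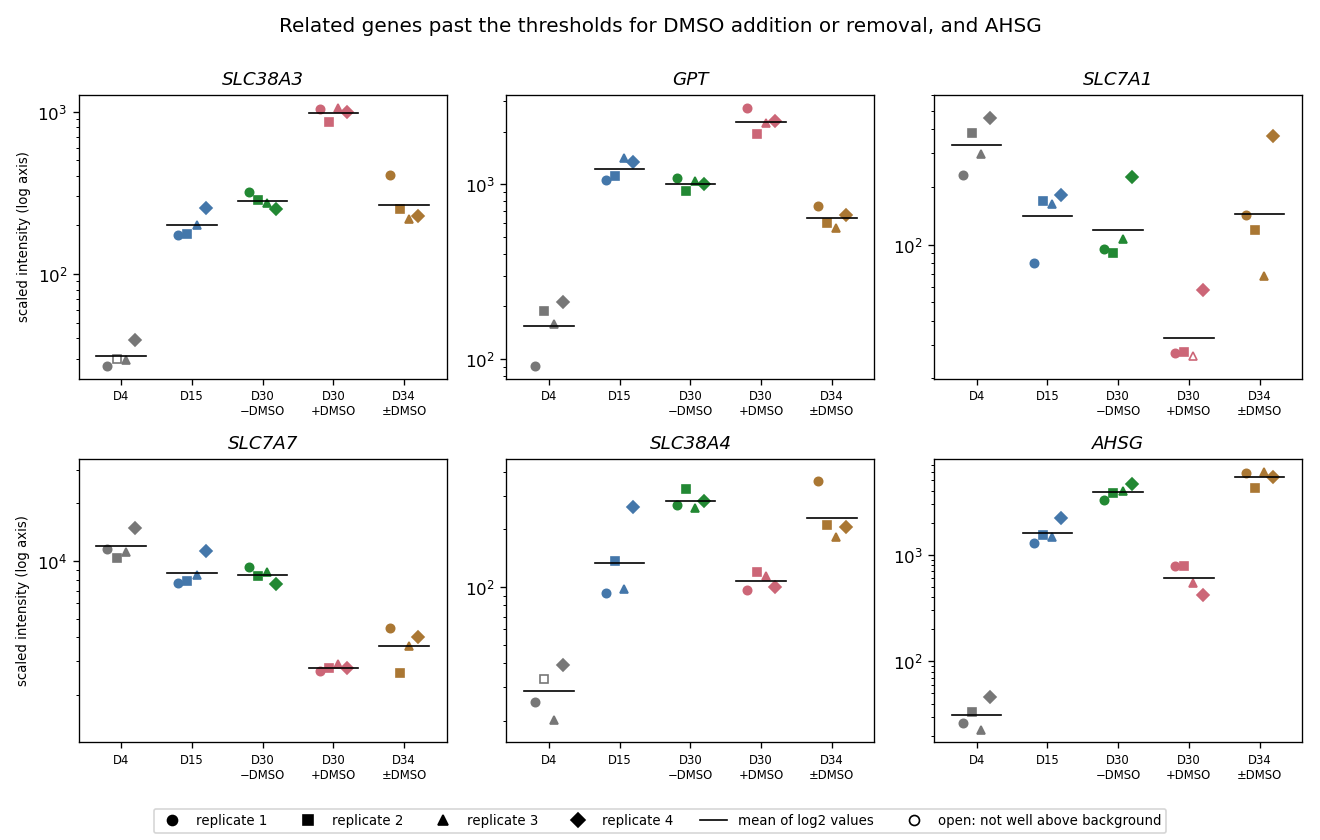
Scaled intensity on a log axis of the 5 related genes past the thresholds for DMSO addition or removal and of the hepatocyte marker AHSG, by condition, each point 1 array and each bar the mean of the 4 log2 values, with open points for arrays not well above background. The D30 + DMSO points of SLC38A3 and GPT lie above those of D30 − DMSO and D34 ± DMSO, and those of SLC7A1, SLC38A4 and AHSG lie below both. Of the 10 hepatocyte markers, AHSG alone had a negative difference for DMSO addition.

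Markers of the cells in the culture moved with several of these steps. Of the 10 hepatocyte markers, addition of DMSO raised CYP3A4 and lowered AHSG, the plasma protein fetuin-A, and removal did the reverse. ALB gave 0.27 ± 0.26 SE and -0.25 ± 0.26 SE. AHSG went from 3260, 3830, 3920 and 4560 at D30 − DMSO to 777, 791, 537 and 421 with DMSO and 5890, 4260, 6010 and 5360 after removal, in the direction of the CPS1 values. AHSG was the only one of the 10 hepatocyte markers with a negative difference for addition, and the other 9 ran from 0.10 for HP to 4.07 for CYP3A4. The summed intensity of the hepatocyte markers ran from 1390000 to 1450000 at D30 − DMSO, 1510000 to 2550000 at D30 + DMSO and 1300000 to 1630000 at D34 ± DMSO. All 10 proliferation markers were lower at D15 than at D4 and all 10 were higher after DMSO removal, when their summed intensity was 25900 to 39100 against 5480 to 7990 at D30 + DMSO and 34700 to 41100 at D4. Among the 7 biliary and progenitor markers tested, addition raised SOX9 and lowered SPP1 and removal did the reverse (-2.07 and 2.24), and their sum was 90200 to 93700 without and 67500 to 99500 with DMSO. Among the 6 mesenchymal markers tested, DCN and LUM fell with DMSO and rose on removal, with sums of 4910 to 10700, 1360 to 2260 and 5280 to 11400, and 4 others (COL1A2, COL3A1, THY1 and PDGFRB) were not well above background in any whole condition. The part of these shifts in the values of GLS2, ARG2, CPS1 and ASL was not tested.

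The genes whose log2 values followed ARG1 most closely over the 20 arrays were ACOX2, with Pearson r = 0.996, SERPINA10 with 0.994, and FABP1, MTTP and the unnamed transcript XM_938115, each with 0.993. Among those of GLS2 were GCDH with r = 0.957, UGT1A6 with 0.953, AMACR with 0.948 and UGT1A8 with 0.946. These 20 points share 5 conditions, and the D4 arrays at background weigh heavily in the values for ARG1. UGT1A6 and UGT1A8 are transcripts of one locus with common exons. GCDH, the glutaryl-CoA dehydrogenase of lysine breakdown, gave 2.08 for DMSO addition and -1.89 for removal, beside 2.97 and -3.12 for GLS2.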

How the data were processed

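HepaRG RNA was measured on 20 one-colour Agilent arrays. The deposited Feature Extraction output of the authors (version 10.7.3.1 per the labels, 10.7.1.1 in the headers) gives an intensity per spot, background-subtracted and not scaled between arrays, and binary flags. A matrix of log2 values, also deposited, equals the log2 intensity less the 75th percentile of each array and less a baseline for each probe that the sources do not state (21541 probes compared, largest array shift 0.00347, column medians from -0.204 to 0.174).

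Control spots were left out, which gave 58717 spots per array. Outlier-flagged spots were also left out, unless all spots of a probe were flagged (up to 147 probes on an array). The spots kept were averaged to 42405 probes. Intensities were scaled to the 75th percentile (283 to 530 units before scaling), floored at 1 and put on the log2 scale. A probe stayed if any condition had it well above background on its 4 arrays (26351 probes), and 1 brightest probe was used per gene. Between 61.1% and 74.2% of the spots of an array were well above background, and the number of arrays limits the precision. Names come from RefSeq accessions, found for 24826 probes. For the other 17579 probes the array's own name was kept.

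One model over the 20 arrays with 5 condition means was fitted in R 4.3.3 with limma 3.58.1 with Benjamini-Hochberg adjustment over 22069 genes. The thresholds follow the study's methods, with limma in place of the t-test and ANOVA. The steps were tested on simulated arrays with independent noise and no slide or session structure, so that test says nothing of slide effects. All 9 genes are named with every probe. Other lists are given as counts, with values for genes past the thresholds for DMSO addition or removal and for GLUL, SLC25A13, OAT and CA5A. A few genes called at D15 were named after their values were seen. For ARG1 and GLS2 the 5 genes of highest Pearson r were taken. Genes that fell under these rules but are not named are not reported here. The members, lists and rules were chosen with earlier results of these data known. Where a probe was below background on all arrays of a condition, the fold is a bound, set against the dimmest signal of each array that Feature Extraction still called above background. Alternatives covered scaling, background correction, floor, filter, probe choice, batch blocks, tests and single arrays left out.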

Additional observations from a re-analysis of the deposited data

Results flagged for a closer look

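In a few groups of 4 arrays 1 array stood apart, with a gap to its nearest neighbour that, as a share of the group's range, exceeded 0.829. Chance alone marks about 1 group in 20, and whether the groups below exceed that rate was not tested. In the D30 − DMSO cells replicate 4 was low for ARG1 (1610 units against 3240 to 3630, share 0.863) and for the brighter ASS1 probe (27300 against 38100 to 40600, share 0.843), and high for ARG2 (60.1 against 40.7 to 43.4, share 0.836). In the D30 + DMSO cells replicate 4 was low for OTC (952 against 1650 to 1760, share 0.893) and for the second ARG1 probe (1760 against 3350 to 3730, share 0.857). At D15 replicate 4 was high for GLS2 (320 against 132 to 146, share 0.889) and replicate 1 was low for ARG2 (32.2 against 60.4 to 68.5, share 0.832). The arrays of replicate 4 all lie on slide 4, which was read in the second scan session.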

How the results depend on the processing

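The count of members called for DMSO addition, 2 (ARG2 and GLS2), was 3 with a floor of 10 (OTC gained) and stayed at 2 with normexp, though with OTC in place of ARG2. It became 1 (GLS2) with quantile normalization, no filter on dim probes, slide as a block, the methods' t-test, a fit of the compared arrays alone and, chosen after seeing the data, the arrays of scan session 1 only, and 4 at an adjusted p below 0.05 with no fold limit, where removal gave 3. Keeping only probes well above background on all arrays left out ARG1 and OTC and gave 2 for D4 to D15, 1 for D30 + DMSO against D15, 3 for D30 + DMSO against D4 (3 and 5 in the fit as reported) and 2 over the 5 conditions. Over the 5 conditions the count of 4 became 2 (ARG1 and OTC) with no filter and with the methods' ANOVA. With single arrays left out the counts ran from 4 to 4 for D4 to D15, 0 to 0 for D15 to D30 − DMSO, 1 to 2 for addition, 1 to 1 for removal, 0 to 0 for D34 ± DMSO against D30 − DMSO, 3 to 3 for D30 + DMSO against D15, 5 to 5 against D4, and 2 to 4 over the 5 conditions, the 2 being without D30 + DMSO replicate 3. Of 1960 single values under alternatives, 34 lost and 15 gained a call, and 1911 did neither. No called difference changed its sign, while 66 of the 1400 values of uncalled differences did, all of differences of at most 0.28 as reported.

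Over all genes the 383 higher and 908 lower calls of addition became 248 and 435 with normexp and 176 and 354 with the methods' t-test, and the 1115 and 439 of removal 614 and 258 and 327 and 133. The causes of these changes were not tested.

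Arrays of the same replicate number deviated together with r from -0.311 to 0.795 over 20 pairs of arrays from 5 pairs of conditions, so the number alone does not pair them. The pairs of replicate 4, all on slide 4, had r from 0.583 to 0.795. Those of the other numbers ran from -0.311 to 0.565. Arrays of the same slide had a median r of 0.381 and those of other slides -0.168. The replicate block changed no count of members called, and CPS1 for removal had an adjusted p of 0.00708 with it.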
